A study of Anser cygnoides with 6 samples.

Results

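Receptors of follicle-stimulating hormone, vasoactive intestinal peptide and other peptide hormones were examined in the ovary transcriptome of the swan goose, Anser cygnoides. The 10 genes of interest were FSHR, VIPR1, VIPR2, GNRHR, OXTR, RXFP1, RXFP2, LEPR, ADIPOR1 and ADIPOR2, chosen by name. Of these, 9 had rows among the 14696 genes of the deposited table and GNRHR was not analysed here. The table names 3 of the 9 itself (FSHR, VIPR2 and ADIPOR2), and the other 6 were named through their gene identifiers in the NCBI goose annotation. The 3 libraries of the broody group came from ovaries at the stage of broodiness, after forced moulting and short illumination, and the 3 libraries of the reproductive group from ovaries at the stage of reproduction. The labels give 1 light programme for all geese, 11 h on and 13 h off, with birds reared to 40 weeks of age. Whether light differed between the groups is therefore not clear, and broodiness cannot be told apart from moulting. No label says which part of the ovary was taken or whether each library was a different goose. The p-values thus reflect only library-to-library spread, which may be technical.

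Peptide hormones act through receptors in the cell membrane. FSHR, VIPR1 and VIPR2 couple mainly to the G protein Gs, which raises cyclic AMP (cAMP) and activates protein kinase A. In the avian ovary FSHR sits on granulosa cells, where follicle-stimulating hormone drives follicle growth and steroid synthesis. Vasoactive intestinal peptide (VIP) releases prolactin, the hormone of broodiness, from the bird pituitary, and is also carried by nerves of the follicle wall. LEPR signals through the kinase JAK2, and the adiponectin receptors ADIPOR1 and ADIPOR2 are membrane proteins of another family that act partly through AMP-activated kinase.

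Levels are in FPKM, a read measure divided by transcript length and by library size, so genes can be compared per length. Differences are broody minus reproductive on the log2(FPKM + 1) scale, with the standard error (SE) of limma, and adjusted p-values are by limma with Benjamini-Hochberg adjustment across the 11377 tested genes and a threshold of 0.05. Library depth is unknown. Across tested genes, Pearson's r was 0.972 to 0.980 between broody libraries, 0.944 to 0.968 between reproductive libraries and 0.811 to 0.947 across groups. On the first principal component, with 74.9% of the variance, reproductive 2 stood farthest from the other libraries (score -67.4), and broody 3 (26.3) lay closer to the reproductive group than broody 1 and 2 (43.9 and 44.0). The 7 oocyte markers measured summed to between 1092 and 1295 FPKM in broody and between 135 and 616 FPKM in reproductive libraries, and include ZP2, a protein of the egg coat. The labels name ovary, but the study's design description speaks of oviduct. Of 11 oviduct markers listed, 1 had a row, TF, the transferrin gene, with 0.969 to 4.79 FPKM in broody and 2.27 to 71.1 FPKM in reproductive libraries, the highest value being in reproductive 2.

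Among the receptors in broody against reproductive ovaries, VIPR2 fell in broody ovaries and ADIPOR1 rose. The other 5 tested receptors, FSHR, VIPR1, LEPR, RXFP1 and ADIPOR2, did not pass the threshold. OXTR and RXFP2 were under 1 FPKM in at least 4 libraries and were not tested. The threshold was passed by 41.9% of all tested genes, with 29.9% higher and 12.0% lower in broody libraries, so 2 receptors of 7 is no larger a share than that of all genes. The groups did not overlap for 3 of the 7 receptors (VIPR2, ADIPOR1 and ADIPOR2), against 59.5% of all tested genes. The median difference of the 7 receptors was 0.17, against 0.23 for all tested genes.

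**Figure D1:**
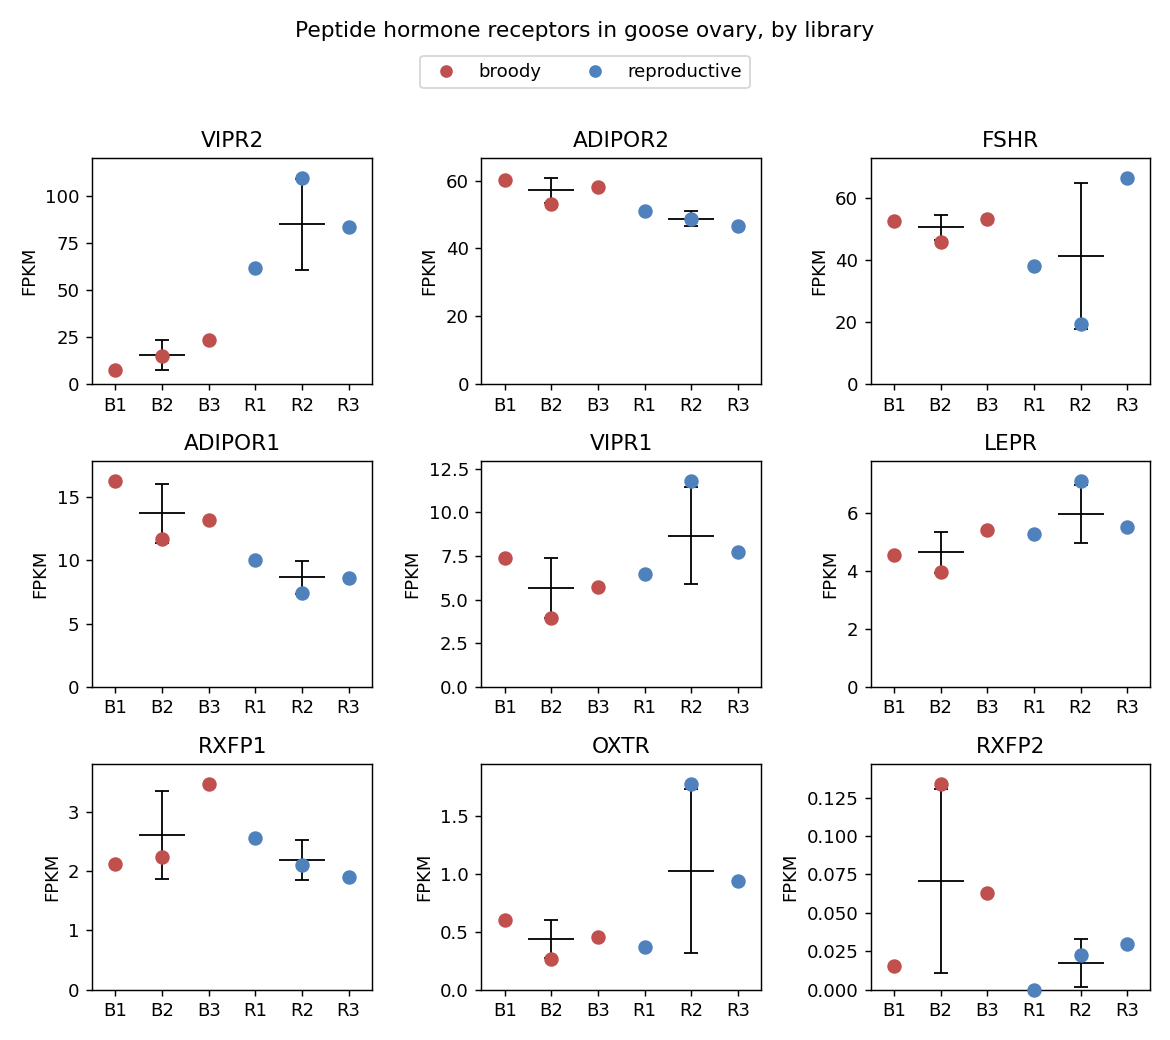
FPKM of the 9 receptors in each library, with broody libraries 1 to 3 (B1 to B3) in red and reproductive libraries 1 to 3 (R1 to R3) in blue; bars show the mean and SD of each group (n = 3). VIPR2 lies at 7.53 to 23.4 FPKM in broody and at 61.3 to 109 FPKM in reproductive libraries, while FSHR overlaps between the groups.

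VIPR2 (106038915), one of the receptors shared by VIP and the related peptide PACAP, had 7.53, 14.6 and 23.4 FPKM in broody 1 to 3, against 61.3, 109 and 83.6 FPKM in reproductive 1 to 3. The lowest reproductive library stood well above the highest broody one. Of all tested genes, 18.2% had every broody library below every reproductive one, by whatever margin. The group means were 15.2 ± 7.93 and 84.7 ± 24.0 FPKM (SD, n = 3 each), so the reproductive mean was 5.59 times the broody mean. The difference was -2.50 ± 0.38 (SE), with a 95% interval of -3.38 to -1.61 and an adjusted p of 0.0129 by limma. In bulk tissue, fewer cells of a type and less RNA per cell cannot be told apart. By group means, VIPR2 exceeded 52.6% of tested genes in broody ovaries and 95.2% of them in reproductive ovaries. Nearly all of its signal came from 1 annotated transcript, and the other stayed at or under 0.0256 FPKM. Without broody 1 the difference was -2.10 and without broody 2 it was -2.53, and both then missed the threshold (adjusted p = 0.0536 and 0.0664 by limma), where only 1 of all genes still passed it. The unadjusted limma p was 2.64e-04 and 0.00117 in these fits.

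VIPR1 (106036855), the receptor that also binds VIP and PACAP, had 7.37, 3.94 and 5.73 FPKM in broody libraries and 6.44, 11.8 and 7.74 FPKM in reproductive libraries. The groups overlapped, and the difference of -0.53 ± 0.27 (SE), with a 95% interval of -1.15 to 0.097, did not pass (adjusted p = 0.143 by limma). It was -0.30 without reproductive 2 and -0.33 without broody 2, but -0.71 without broody 1 and -0.69 without reproductive 1. Median-ratio scaling of the libraries gave -0.73 (unadjusted p = 0.0346 and adjusted p = 0.0762 by limma). VIPR1 passed the threshold in none of these fits. Its level in reproductive libraries was roughly 0.0926 to 0.108 times that of VIPR2, whereas in broody 1 the ratio was 0.979 and in broody 2 and 3 it was 0.270 and 0.245. On the log2 scale the VIPR1 to VIPR2 ratio was -0.027, -1.66 and -1.86 in broody and -3.07, -3.11 and -3.27 in reproductive libraries. All broody ratios were thus higher, by a mean of 1.97, and an exact two-sided permutation test gave p = 0.1, the smallest that 3 against 3 libraries allow (0.15 adjusted over 3 receptor pairs). ADCYAP1R1, the receptor selective for PACAP and a close gene of VIPR1 on the chromosome, had 11.5, 13.3 and 10.9 FPKM in broody and 12.4, 7.504 and 15.5 FPKM in reproductive libraries and did not pass (adjusted p = 0.853 by limma).

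FSHR (106043145) had 52.7, 45.9 and 53.3 FPKM in broody libraries and 38.0, 19.5 and 66.5 FPKM in reproductive libraries. The broody values lay close together, with a coefficient of variation of 8.08%, and inside the spread of the reproductive values, whose coefficient was 57.3%. Reproductive 2 was the lowest library and reproductive 3 the highest of all 6. The difference was 0.45 ± 0.38 (SE), with a 95% interval of -0.45 to 1.34 and an adjusted p of 0.364 by limma, so neither a fall by 0.45 nor a rise by 1.34 lies outside these data. Single libraries decided the value, which was 0.86 without reproductive 3, past the threshold (adjusted p = 0.0433 by limma), and 0.0047 without reproductive 2 (adjusted p = 0.990 by limma).

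The deposited table splits FSHR into 3 annotated transcripts. The main one, XM_013192471.1, made up 75.9, 78.6 and 77.4% of the FSHR signal in broody libraries and 70.4, 70.1 and 67.7% in reproductive libraries. The second, XM_013192473.1, made up 21.6, 19.1 and 21.5% in broody and 23.9, 28.1 and 31.5% in reproductive libraries. Both shares were separate between the groups, although total FSHR was not. The 2 transcripts make up nearly all of the FSHR signal, so as one share rises the other falls and they are not independent. How often transcript shares are separate in other genes was not examined. At gene level the groups did not overlap for 59.5% of all tested genes. The main share averaged 77.3 ± 1.35% in broody and 69.4 ± 1.51% in reproductive libraries (SD, n = 3 each), a difference of 7.91 percentage points, and leaving out any 1 library kept it between 7.05 and 8.61. An exact two-sided permutation test gave p = 0.1 for the main and for the second share, the smallest possible here (0.15 adjusted over the 3 transcripts). This comparison was chosen after the values were seen. The third transcript took between 0.887 and 5.68% in any library. StringTie divides reads of shared exons among transcripts, so these shares are estimates.

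**Figure D2:**
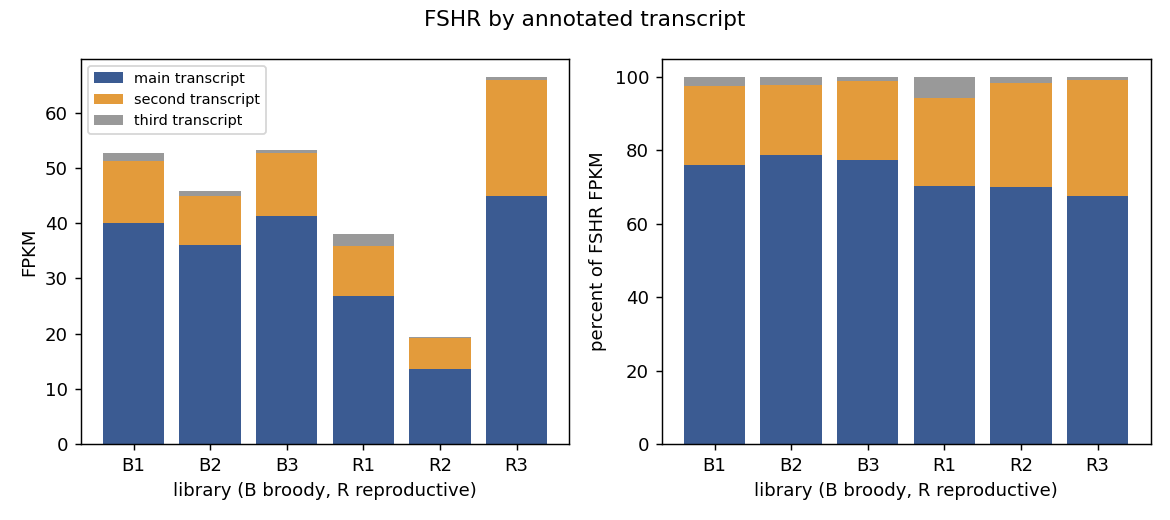
FSHR by annotated transcript in broody (B1 to B3) and reproductive (R1 to R3) libraries, as stacked FPKM on the left and as percent of the gene's FPKM on the right. The total is lowest in reproductive 2 (19.5 FPKM) and highest in reproductive 3 (66.5 FPKM), while the main transcript holds 75.9 to 78.6% in the broody group and 67.7 to 70.4% in the reproductive group.

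RXFP1, RXFP2 and OXTR were low in both groups. RXFP1 (106032293), the relaxin receptor of mammals, had 2.13, 2.24 and 3.47 FPKM in broody and 2.56, 2.11 and 1.90 FPKM in reproductive libraries. The groups overlapped and the difference of 0.17 ± 0.19 (SE; 95% interval -0.28 to 0.61) did not pass (adjusted p = 0.501 by limma). Without broody 3 the RXFP1 difference was 0.0023. RXFP2 (106041115), the receptor of INSL3 in mammals, reached at most 0.134 FPKM, in broody 2, and was listed at 0 in reproductive 1. OXTR (106036700), a receptor of the oxytocin family of peptides, had 0.598, 0.265 and 0.452 FPKM in broody and 0.365, 1.77 and 0.938 FPKM in reproductive libraries. Its values overlapped, and without the filter on low values the difference of -0.44 did not pass (adjusted p = 0.206 by limma). The log2 ratio of RXFP1 to RXFP2 differed by 0.093, with an exact two-sided permutation p of 0.6, and turned to -0.27 with a pseudocount of 0.1 and to -0.075 without broody 3.

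ADIPOR1 (106046119) had 16.3, 11.7 and 13.2 FPKM in broody libraries and 9.998, 7.40 and 8.59 FPKM in reproductive libraries. The groups did not overlap. Of all tested genes, 41.3% had every broody library above every reproductive one. The means were 13.7 ± 2.32 and 8.66 ± 1.30 FPKM (SD, n = 3 each), a ratio of 1.58, and the difference was 0.61 ± 0.18 (SE), with a 95% interval of 0.20 to 1.02 and an adjusted p of 0.0314 by limma. This rise depended on the scaling of the libraries. Median-ratio scaling, which brought the median difference of all tested genes to 0.018, left 0.39 (adjusted p = 0.104 by limma), and upper-quartile scaling and quantile normalization left 0.38 and 0.42 (adjusted p = 0.104 and 0.0778 by limma). With the highest transcript alone it was 0.61 (adjusted p = 0.0507 by limma). ADIPOR1 has only 1 transcript, so its own values were unchanged there and only the fit over the other genes differed. It also missed the threshold in 5 of the 6 fits that left out a library, all but the one without reproductive 1, with adjusted p of 0.0535 to 0.117 by limma.

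ADIPOR2 (106030938) was the more abundant adiponectin receptor in every library. It had 60.1, 53.1 and 58.2 FPKM in broody and 51.0, 48.8 and 46.8 FPKM in reproductive libraries. The values did not overlap and varied little, with coefficients of variation of 6.28% and 4.32%, but the difference of 0.22 ± 0.12 (SE; 95% interval -0.062 to 0.50) did not pass (adjusted p = 0.170 by limma). It was close to the median difference of all tested genes, and was -0.012 after median-ratio, -0.016 after upper-quartile and -0.034 after quantile scaling. The ratio of ADIPOR1 to ADIPOR2 within a library is untouched by a single scaling factor per library, apart from the pseudocount. It was -1.82, -2.09 and -2.06 on the log2 scale in broody and -2.24, -2.57 and -2.32 in reproductive libraries. Each broody ratio was higher than each reproductive one, by a mean of 0.38 (exact two-sided permutation p = 0.1, the smallest possible, and 0.15 adjusted over 3 receptor pairs). This ratio is made of the same values as the differences of the 2 genes, so it is not a separate result. A second ADIPOR2 transcript took 5.45 ± 0.338% of the gene in broody and 3.28 ± 2.02% in reproductive libraries (SD, n = 3 each), with overlapping values.

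LEPR (106043619), the leptin receptor, had 4.55, 3.99 and 5.41 FPKM in broody and 5.29, 7.12 and 5.52 FPKM in reproductive libraries. The groups overlapped, and the difference of -0.30 ± 0.17 (SE; 95% interval -0.71 to 0.10) did not pass (adjusted p = 0.189 by limma). It was -0.19 without reproductive 2 and -0.40 without broody 3. Median-ratio scaling gave -0.50 (unadjusted p = 0.0320 and adjusted p = 0.0723 by limma). In the goose annotation LEPR lies between LEPROT, whose human counterpart shares its promoter with LEPR and affects receptor traffic, and PDE4B, a phosphodiesterase that degrades cAMP. Both of these fell, as did DYNLT5 by 0.91, whereas AK4, DNAJC6 and SGIP1, the other genes among the 3 nearest on each side, rose by 0.55, 1.26 and 0.72. Of all tested genes, 41.9% passed the threshold, and the tested genes among the 3 nearest on each side of VIPR1 did not. DYNLT5 and SGIP1 were low, with means of 0.703 and 1.37 FPKM in broody and 2.24 and 0.456 FPKM in reproductive libraries. LEPROT averaged 35.7 ± 3.69 FPKM in broody and 61.4 ± 13.1 FPKM in reproductive libraries, and PDE4B 2.12 ± 0.980 and 8.44 ± 3.88 FPKM (SD, n = 3 each), with adjusted p of 0.0201 and 0.0178 by limma.

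**Figure D3:**
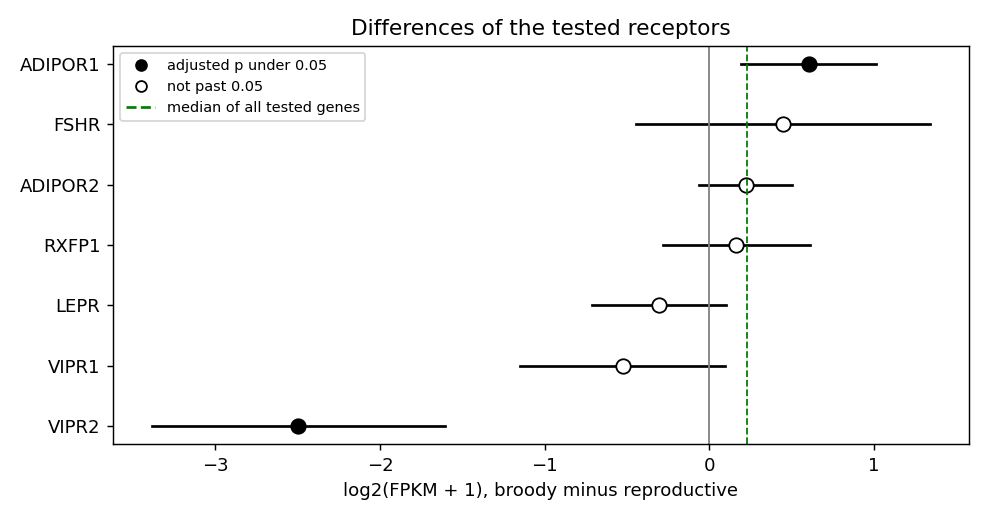
Difference in log2(FPKM + 1), broody minus reproductive, for the 7 tested receptors, with 95% intervals from limma. Filled points passed the threshold (VIPR2 at -2.50 and ADIPOR1 at 0.61), open points did not, and the dashed line marks the median of all tested genes at 0.23.

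The order of the levels changed at its top. In broody ovaries the order by mean was ADIPOR2 (57.1 FPKM), FSHR (50.6), VIPR2 (15.2), ADIPOR1 (13.7), VIPR1 (5.68), LEPR (4.65), RXFP1 (2.61), OXTR (0.438) and RXFP2 (0.0707). In reproductive ovaries VIPR2 came first (84.7 FPKM), followed by ADIPOR2 (48.8), FSHR (41.3), ADIPOR1 (8.66), VIPR1 (8.66), LEPR (5.97), RXFP1 (2.19), OXTR (1.03) and RXFP2 (0.0174). Neighbours in this order overlapped in broody libraries for ADIPOR2 and FSHR, for VIPR2 and ADIPOR1 and for VIPR1 and LEPR. In reproductive libraries they overlapped for ADIPOR2 and FSHR, for ADIPOR1 and VIPR1 and for VIPR1 and LEPR.

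Markers of several ovarian cell types differed between the groups. The smooth muscle markers summed to 258, 345 and 691 FPKM in broody 1 to 3 and to 3442, 4996 and 2309 FPKM in reproductive 1 to 3, and all 8 of the 8 measured were lower. VIPR2 and this sum were both lowest in broody 1 and highest in reproductive 2. Their order differed between reproductive 1 and 3, where VIPR2 had 61.3 and 83.6 FPKM and the sum was 3442 and 2309 FPKM. The log2 ratio of VIPR2 to the sum was -4.93, -4.47 and -4.83 in broody and -5.79, -5.50 and -4.77 in reproductive libraries, which overlap (difference 0.61, exact two-sided permutation p = 0.3, and 0.3 adjusted over 2 marker ratios). That difference was 0.40 without reproductive 1 and 0.90 without reproductive 3. VIPR2 thus was lower together with the muscle markers, and their part in its difference was not tested. Theca markers, of the outer follicle wall, summed to 253 to 483 FPKM in broody and 602 to 953 FPKM in reproductive libraries (4 of 7 tested lower, 0 higher, and 5 and 0 at an unadjusted limma p under 0.05). DCN alone gave 158, 184 and 254 FPKM of this in broody and 403, 747 and 553 FPKM in reproductive libraries. CYP17A1 had 39.5, 35.4 and 112 FPKM in broody and 62.4, 36.4 and 111 FPKM in reproductive libraries. Its groups overlapped and it did not pass (adjusted p = 0.742 by limma). Macrophage markers summed to 222 to 386 and 534 to 1000 FPKM, in the same order of groups, with 10 of 10 lower. Over all tested genes 12.0% were lower and 29.9% higher in broody libraries. An unadjusted limma p under 0.05, in either direction, was found for 6124 of the 11377 tested genes.

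The genes listed as granulosa markers, without FSHR, summed to 432, 550 and 467 FPKM in broody and to 176, 166 and 259 FPKM in reproductive libraries. AMH alone gave 202, 295 and 227 FPKM of this in broody and 53.7, 53.4 and 64.5 FPKM in reproductive libraries. The set also held CYP19A1, with 18.9 to 48.8 FPKM, whose cell type in these ovaries was not tested. Of the 6 granulosa markers tested, 3 were higher and 0 lower (4 and 0 at an unadjusted limma p under 0.05), among them AMH. INHA was at or under 0.0472 FPKM throughout. Beside this count and those below, 29.9% of all tested genes were higher and 12.0% lower. An unadjusted limma p under 0.05 was found for 6124 of 11377 genes, in either direction. The summed markers did not overlap between the groups, whereas FSHR did. FSHR per unit of this sum was 0.122, 0.0835 and 0.114 in broody and 0.217, 0.118 and 0.257 in reproductive libraries. The log2 ratio differed by -0.84, with an exact two-sided permutation p of 0.2 (0.3 adjusted over 2 marker ratios), and reproductive 2 lay within the broody range. Among adipocyte markers, PLIN1, a coat protein of lipid droplets, stayed at or under 0.0299 FPKM, and the sum of 5 markers was 143 to 172 FPKM in broody and 78.7 to 123 FPKM in reproductive libraries. Of 4 tested, 2 were higher and 0 lower. The 2 were LPL and G0S2, with means of 69.8 and 70.3 FPKM in broody and 40.0 and 38.4 FPKM in reproductive libraries. ADIPOQ and PPARG went the other way (differences -0.89 and -0.34) and did not pass. Endothelial markers summed to 283 to 341 FPKM in broody and 286 to 308 FPKM in reproductive libraries, with 2 higher and 7 lower of 10. EMCN alone gave 174, 227 and 180 FPKM of this in broody and 89.1, 60.6 and 101 FPKM in reproductive libraries. It was 1 of the 2 higher genes, so the overlap of the sums does not describe the 7 lower ones. The part of these markers in the differences of FSHR, ADIPOR1 and ADIPOR2 was not tested.

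**Figure D4:**
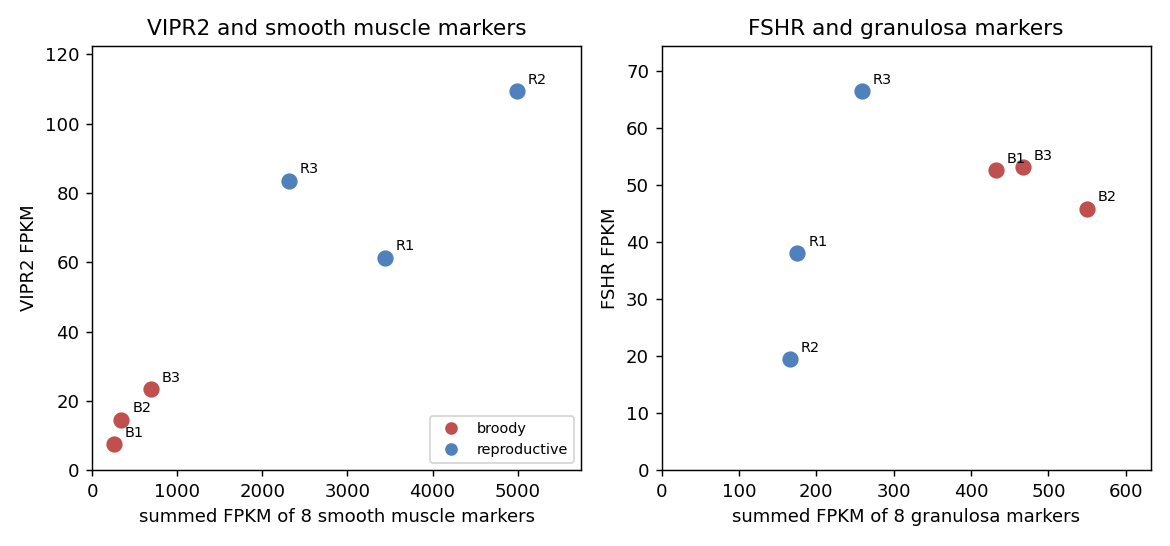
VIPR2 against the summed FPKM of 8 smooth muscle markers (left) and FSHR against the summed FPKM of 8 granulosa markers (right), 1 point per library, with broody in red and reproductive in blue. The broody libraries are lowest on both axes for VIPR2 and the muscle markers, while FSHR overlaps at granulosa sums of 432 to 550 FPKM in broody and 166 to 259 FPKM in reproductive libraries.

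Ligand genes of these receptors were low. Of 13 listed, 7 had a row and 2 were tested, of which 0 passed by limma, also at an unadjusted p under 0.05. VIP had 0.940, 0.649 and 1.77 FPKM in broody and 1.24, 0.664 and 2.03 FPKM in reproductive libraries, and ADIPOQ, adiponectin, had 2.12, 1.73 and 4.28 against 3.21, 11.2 and 4.60 FPKM. Below the filter, FSHB, the beta subunit of follicle-stimulating hormone, had 2.25, 1.79 and 0.340 FPKM in broody and 0.134, 0.479 and 0.160 FPKM in reproductive libraries. CGA, the alpha subunit, had only 0.018 to 0.081 FPKM over all libraries. ADCYAP1, the PACAP gene, had 1.98 and 1.17 FPKM in broody 1 and 2 and 0 to 0.041 FPKM in the other 4 libraries. FSHB, CGA and ADCYAP1 were named after their values were seen, were not tested in the main fit, and their groups overlap in FPKM. Without the filter on low values, all 7 ligand genes with a row were fitted and 0 passed by limma. At an unadjusted limma p under 0.05, 1 of the 7 was then higher and 0 lower. Of all 14600 genes in that fit, 6732 had such a p, in either direction.

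Of 32 other genes of peptide hormone receptors and their partners, 16 were tested, of which 5 fell and 1 rose (6 and 1 with median-ratio scaling), with a median difference of -0.55. Over all tested genes 12.0% were lower and 29.9% higher, and after median-ratio scaling 18.4% were lower and 17.5% higher. The counts of the lists that follow stand against the same shares. CDH13, a cadherin that binds adiponectin, had 15.8, 15.3 and 13.0 FPKM in broody and 40.6, 43.4 and 39.2 FPKM in reproductive libraries (difference -1.42 ± 0.13 SE, adjusted p = 0.00820 by limma). It thus fell where ADIPOR1 rose in the main fit. CDH13 kept its call in 15 of 17 alternatives, but ADIPOR1 in only 8. GALR1, a galanin receptor, averaged 2.66 ± 1.39 FPKM in broody and 16.5 ± 10.01 FPKM in reproductive libraries (SD, n = 3 each), and BDKRB2, a bradykinin receptor, 2.96 ± 0.752 and 14.1 ± 6.75 FPKM. EDNRA, an endothelin receptor of smooth muscle, averaged 20.3 ± 6.76 and 53.4 ± 18.9 FPKM in the same order. CALCRL, the receptor of adrenomedullin and related peptides, fell by 0.46. The gene that rose, NPY1R, a neuropeptide Y receptor, had 19.5, 23.2 and 19.4 FPKM in broody and 7.06, 2.32 and 10.1 FPKM in reproductive libraries (difference 1.70 ± 0.40 SE, adjusted p = 0.0201 by limma). NPY1R was named here after its values were seen.

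Genes of Gs and cAMP signalling, downstream of FSHR and the VIP receptors, were lower more often than higher. Of 28 tested, 10 fell and 2 rose, a share lower of 10 in 28 against 12.0% of all genes, with a median difference of -0.39. Median-ratio scaling gave 16 lower and 2 higher, where 18.4% of all genes were lower and 17.5% higher. CREB1, the transcription factor activated by protein kinase A, had 11.3, 10.9 and 12.8 FPKM in broody and 21.2, 23.2 and 19.8 FPKM in reproductive libraries (adjusted p = 0.0141 by limma). AKAP12, a scaffold of protein kinase A, averaged 46.3 ± 14.9 FPKM in broody and 119 ± 11.5 FPKM in reproductive libraries (SD, n = 3 each). The cAMP phosphodiesterases PDE4B and PDE4D fell by 1.57 and 1.33. The genes that rose, named after their values were seen, were AKAP1, a mitochondrial anchor of protein kinase A, by 0.76 and RAPGEF4, a cAMP-activated exchange factor, by 0.95. With the highest transcript alone the RAPGEF4 difference was 0.42 and did not pass (adjusted p = 0.395 by limma). GNAS, which encodes Gs itself, averaged 64.5 ± 2.56 FPKM in broody and 49.1 ± 6.04 FPKM in reproductive libraries and did not pass (adjusted p = 0.0514 by limma).

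Among 19 tested genes of Gq and calcium signalling, the route of OXTR, 5 fell and 3 rose, or 8 and 2 with median-ratio scaling, with a median difference of -0.12. All tested genes had 12.0% lower and 29.9% higher, or 18.4% and 17.5% with that scaling. PRKCA, a protein kinase C, fell by 0.72 and CAMKK2, a kinase activated by calmodulin, by 0.62. PLCB1, a phospholipase C, rose by 0.88. PRKCZ, listed here with the protein kinase C genes, rose by 1.40, and its place on the OXTR route was not tested. With the highest transcript alone the PLCB1 difference was 1.36 and did not pass (adjusted p = 0.103 by limma). The other genes past the threshold, named after their values were seen, were PLCB4, ITPR2 and PRKCQ, lower, and PRKCH, higher. Of 18 genes of receptor desensitisation tested, 5 fell and 3 rose, or 6 and 2 with median-ratio scaling, beside the same shares of all genes. RGS5, a regulator of G protein signalling in vessel wall cells, had 8.81, 7.26 and 20.7 FPKM in broody and 47.6, 167 and 48.1 FPKM in reproductive libraries (difference -2.61 ± 0.55 SE, adjusted p = 0.0177 by limma). RGS18 fell by 1.62 and GRK5, a kinase of active receptors, by 0.81, while RGS7 rose by 0.94. RGS1 and RGS19, lower, and ADRBK1 and RGS3, higher, were named after their values were seen.

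The list around LEPR held signalling genes and also LEPROT and LEPROTL1. Of 17 tested, 3 fell and 2 rose, or 5 and 1 with median-ratio scaling. The share lower was near the 12.0% of all tested genes that were lower, and 29.9% of them were higher. JAK2, the kinase bound to the receptor, had 21.9, 20.7 and 21.3 FPKM in broody and 26.5, 29.7 and 28.5 FPKM in reproductive libraries (difference -0.39 ± 0.12 SE, adjusted p = 0.0364 by limma). With median-ratio scaling the JAK2 difference was -0.62. JAK2 missed the threshold in 7 of 17 alternatives, with the replicate block (adjusted p = 0.105 by limma) and in every fit that left out a library. JAK1 fell by 0.47, and by the same amount with the highest transcript alone, where it missed the threshold (adjusted p = 0.0549 by limma). In all, JAK1 missed the threshold in 7 of 17 alternatives. LEPROT fell by 0.75, while SH2B2, an adaptor of JAK2, rose by 0.92 and LEPROTL1, named after its values were seen, by 0.39. The rise of LEPROTL1 was 0.16 with median-ratio scaling and missed the threshold in 13 of 17 alternatives. STAT3, the transcription factor that JAK2 activates, did not pass, with 29.0 ± 2.81 FPKM in broody and 34.5 ± 2.55 FPKM in reproductive libraries (SD, n = 3 each; adjusted p = 0.166 by limma), nor did SOCS3, its feedback inhibitor, with 2.44 ± 0.592 and 2.31 ± 0.170 FPKM (adjusted p = 0.851 by limma).

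The list around the adiponectin receptors held signalling genes and also related receptors such as PAQR3. Of 20 tested, 5 rose and 0 fell by limma (8 and 0 at an unadjusted p under 0.05). The share higher was near the 29.9% of all genes that were higher, and 12.0% of all genes were lower. With median-ratio scaling the counts were 2 higher and 2 lower. PPARGC1A, a coactivator of mitochondrial genes, had 3.33, 3.77 and 3.95 FPKM in broody and 1.39, 0.581 and 1.17 FPKM in reproductive libraries (difference 1.21 ± 0.19 SE, adjusted p = 0.0136 by limma). PAQR3, of the same protein family as the adiponectin receptors, rose by 0.82. APPL2, which binds adiponectin receptors, rose by 0.46 and PRKAA1, the catalytic subunit of AMP-activated kinase, by 0.41, and both missed the threshold with median-ratio scaling (adjusted p = 0.128 and 0.216 by limma). Without broody 1, and likewise without broody 2, none of the genes of these lists passed the threshold, where only 1 of all tested genes did. At an unadjusted limma p under 0.05 the cAMP list had 10 lower and 2 higher in either fit, against 13 and 3 with all libraries. The adiponectin list had 3 higher without broody 1 and 9 without broody 2, against 8. Among all tested genes, 6124 of 11377 had such a p in the main fit, in either direction. Without broody 1 it was 4485 of 11233 and without broody 2 it was 4594 of 11232.

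**Figure D5:**
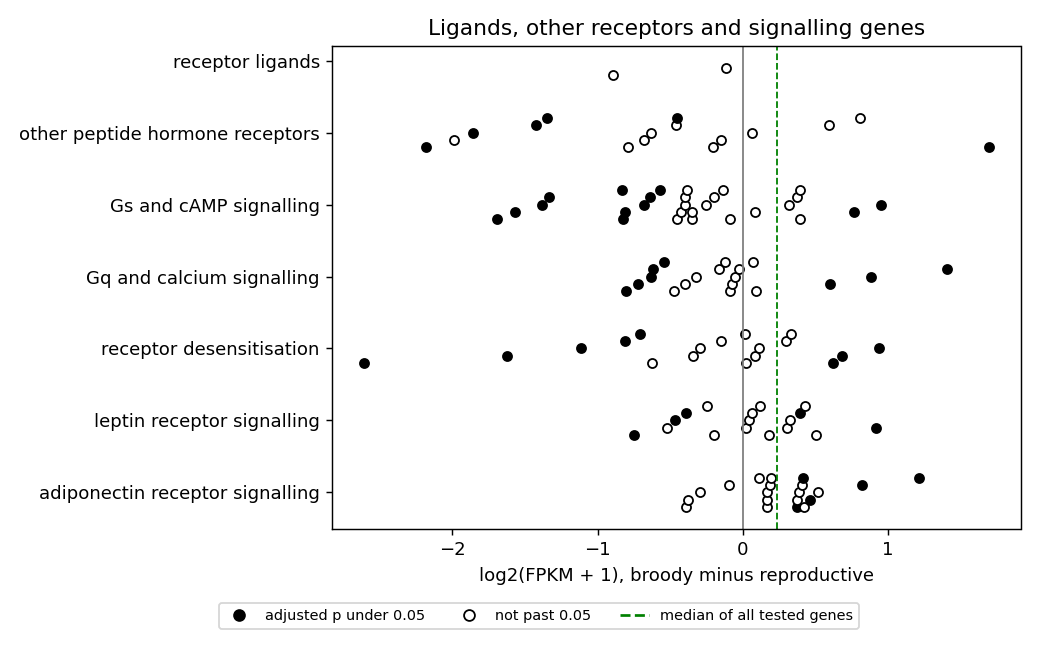
Difference in log2(FPKM + 1), broody minus reproductive, of each tested gene in 7 lists around the receptors, with filled points past the threshold and the median of all tested genes, 0.23, as a dashed line. The cAMP list has 10 filled points below 0 and 2 above it, and the adiponectin list has 5 filled points, all above 0.

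Among 8095 named genes with a mean of at least 5 FPKM, the 4 whose levels followed VIPR2 most closely over the 6 libraries were CALCRL, FAM160B1, FAM198B and TET1, with Pearson's r of 0.999, 0.997, 0.997 and 0.996. In all 4 the broody libraries were lower, for example FAM198B with 14.9, 19.5 and 25.0 FPKM in broody and 46.3, 56.7 and 49.9 FPKM in reproductive libraries. The genes most like ADIPOR1 were TMED3, CYTH1, POFUT1 and HMOX2, with r of 0.987 to 0.994. TMED3 had 31.1, 24.7 and 25.8 FPKM in broody and 20.4, 16.8 and 19.2 FPKM in reproductive libraries. FSHR was followed by POT1, MIA3, SKA2 and KCTD18, with r of 0.974 to 0.992, and POT1, a telomere protein, ranged only from 8.07 FPKM in reproductive 2 to 13.7 FPKM in reproductive 3. An r above 0.95 was found for 330 genes with VIPR2, 153 with ADIPOR1 and 18 with FSHR. These values describe 6 shared libraries that fall into 2 groups.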

How the data were processed

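The authors deposited FPKM per transcript for 6 ovary libraries made with an Illumina TruSeq kit, per the labels' protocols. Per the submitters' processing notes the tools were HISAT2 and StringTie, with no version. Genome build, annotation release and strandedness: not given in the sources used here. Reads from antisense partners therefore cannot be separated, and coordinates are not printed. Sequences of the receptors are not printed.

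The 33089 transcripts were summed per gene identifier. Names came from the deposited table or, where blank, from the annotation of assembly Taihu_goose_T2T_genome, which holds 13873 of the 14696 identifiers and was used for names and gene order only. Identical values above 0 made up at most 0.00870% in any 2 libraries. Genes with at least 1 FPKM in at least 3 libraries were fitted with limma 3.58.1 in R 4.3.3 (eBayes with trend, no covariate) on log2(FPKM + 1), and the fit was checked on simulated data. Ratios within a library were taken after adding the pseudocount of 1, except where given as plain ratios, and were compared by exact permutation over libraries. Other settings covered the pseudocount, filter, scaling, trend, transcript choice, replicate block and each library left out. The receptors, lists and tests were chosen with earlier results of these data known. Named genes were all receptors, up to 4 called genes per list with the smallest p, and the 4 genes most like FSHR, VIPR2 and ADIPOR1; other genes were named after their values were seen. Precision is limited by 3 libraries per group. A result for 1 gene is not reported here.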

Additional observations from a re-analysis of the deposited data

How the results depend on the processing

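The count of genes past the threshold was 4766, against 3147 with the highest transcript alone and 3173 with the replicate number as a block. Leaving out a library gave 1 to 4891 (1 without broody 1 or broody 2, and 2910 without broody 3). The share higher in broody was 71.3%, against 48.7% with median-ratio, 48.2% with upper-quartile and 53.2% with quantile scaling. The count of receptors higher, 1, became 0 with these 3 scalings and with the highest transcript alone, and 0 to 1 when a library was left out. The values of ADIPOR1, which has 1 transcript, were themselves unchanged with the highest transcript alone. The count of receptors lower, 1, was 0 to 1 when a library was left out, with 2 lower at an unadjusted limma p under 0.05 without broody 1 and 1 without broody 2. Of all tested genes, 4485 of 11233 had such a p without broody 1 and 4594 of 11232 without broody 2, in either direction. VIPR2 kept its direction in all 17 alternatives and its call in 15, between -2.85 and -2.10. ADIPOR1 kept its direction in 17 and its call in 8. VIPR1 and LEPR kept their direction and stayed uncalled in all 17. With median-ratio and with upper-quartile scaling, 3 receptors were lower at an unadjusted limma p under 0.05, namely VIPR2, VIPR1 and LEPR. In the main fit and with quantile normalization 1 receptor was lower at such a p. Among all tested genes, such a p in either direction was common. It was found for 5720 of 11379 genes with median-ratio and 5720 of 11383 with upper-quartile scaling, and for 6124 of 11377 in the main fit. RXFP1 turned to -0.0028 with median-ratio and -0.0050 with upper-quartile scaling, and ADIPOR2 to -0.012 (median-ratio), -0.016 (upper-quartile) and -0.034 (quantile). The ratio of RXFP1 to RXFP2 turned to -0.27 with a pseudocount of 0.1 and lay between -0.075 and 0.20 when a library was left out. The cause of these shifts was not tested. Whether replicate numbers pair the libraries cannot be decided from 3 libraries per group. Deviations from the group means correlated across genes at 0.11, -0.16 and -0.20 for same-numbered libraries. For differently numbered libraries they correlated at -0.18 to 0.29. The block changed no receptor's call.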

Other observations

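Chosen after their values were seen, a pair of receptors outside the main set stood highest in reproductive 1. AVPR1A, a vasotocin receptor in birds, had 0.574, 0.502 and 0.516 FPKM in broody 1 to 3 and 26.4, 2.93 and 1.07 FPKM in reproductive 1 to 3. RXFP3, a receptor of relaxin family peptides in mammals, had 1.57, 1.19 and 1.38 FPKM in broody and 9.61, 1.20 and 1.36 FPKM in reproductive libraries. Neither passed the threshold (adjusted p = 0.0867 and 0.344 by limma).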
